A study of Mus musculus with 18 samples.

Results

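The genes described here encode the pore-forming and accessory subunits of potassium channels in the striatum of mice given D-amphetamine or saline. They were taken by name: every row of the deposited expression table whose gene name begins with Kcn and whose mean over all libraries was at least 1 FPKM (a fragment count normalized for transcript length and library size). Of 95 such names, 62 met the limit, among 29942 names in the table and 13975 with a mean of at least 1 FPKM. The 2 members nearest the limit from above were Kcnb2 at 1.14 FPKM and Kcnk12 at 1.27 FPKM, and the nearest names left out were Kcng2 at 0.923 FPKM and Kcnk6 at 0.837 FPKM. No member was listed at 0 in any library, so each of the 62 was measured in every animal and entered every test.

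The series profiled polyA RNA from the striatum, taken from both hemispheres above (dorsal to) the anterior commissure, of 18 sibling mice of the strain 129Sv/Jae S4, matched for age and sex. Its title ties the work to repetitive behaviours that drugs induce. Amphetamine animals received D-amphetamine, a stimulant drug that raises extracellular dopamine, by intraperitoneal injection, 7 mg/kg in all per day, dissolved in 0.9% saline and given at 10 ml/kg. Saline animals received intraperitoneal 0.9% saline, and both treatments were sampled on days 1, 7 and 21, with 3 animals in each of the 6 groups. The labels give neither the sex nor the age itself, nor the interval between the last injection and tissue collection, so each comparison is of the groups as labelled. Within a day the animals are called amphetamine and saline animals, and replicates 1 to 3 carry the numbers of the labels.

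Potassium channels let potassium leave the cell and pull the membrane towards rest. Voltage-gated (Kv) channels shape and end the action potential, inward rectifiers (Kir, encoded by Kcnj genes) and two-pore channels (Kcnk) set the resting potential, and calcium- or sodium-activated channels follow the entry of those ions during firing. Striatal projection neurons are known for a very negative resting potential held by inward rectifiers, and for fast-inactivating Kv currents that delay their first spike, and dopamine receptors act on both kinds of current. Accessory subunits (Kcnab, Kcnip, Kcne, Kcnmb) form no pore of their own and change the gating or surface delivery of the channels they bind. In whole tissue, fewer cells of a type and less RNA per cell cannot be told apart.

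Absolute depth was unknown, since the table gives FPKM and no read counts, and the columns summed to between 533019 and 682270 FPKM. Log2 values of different libraries correlated at 0.92 to 0.939 within groups and 0.911 to 0.942 between groups. Of 12 markers of striatal projection neurons, 11 were in the table (Drd1 is listed there as Drd1a), all above 1 FPKM, and their summed level ran from 3980 to 4816 FPKM on day 1, 4003 to 4753 FPKM on day 7 and 4070.0 to 4639 FPKM on day 21 in amphetamine animals, against 3914 to 4419, 4422 to 4775 and 3950.1 to 4783 FPKM in saline animals on the same days. Markers of tissue next to the striatum were uneven between single animals: cortical Slc17a7 ran from 1.29 to 48.4 FPKM, and Ttr of the choroid plexus from 0.911 to 91.1 FPKM, over the 18 libraries. Slc17a7 was lower on average in amphetamine than in saline animals on days 1, 7 and 21, with log2 differences of -1.52, -0.33 and -0.50. Of the 4 cortical markers tested, 1, 2 and 0 were higher on those days, and none passed the threshold used below. The 7 cortical markers listed summed to 6.37 to 23.4 FPKM in amphetamine and 9.42 to 41.9 FPKM in saline animals on day 1, with overlap. On day 1 the 6 choroid plexus markers summed to 26.9 to 102 FPKM in amphetamine against 10.6 to 19.9 FPKM in saline animals, without overlap, with all 3 that were tested higher on average. On day 7 all 3 were again higher on average, and on day 21 2 of them (median log2 differences 0.24 and 0.20), with overlapping sums. The 4 ependymal markers tested were all higher on average on days 1 and 7, and 3 of them on day 21. Their median log2 differences were 0.41, 0.77 and 0.13, and the sums of the ependymal list overlapped on each day. The 7 oligodendrocyte markers were also all higher on average on day 1 (median log2 difference 0.25), with sums of 1724 to 2815 FPKM in amphetamine and 1253 to 2185 FPKM in saline animals. The part of these markers in the differences given here was not tested.

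The mean levels of the potassium channel genes ran from 1.14 FPKM for Kcnb2 to 181 FPKM for Kcnab1, as the plot of levels by gene shows. They summed to 1309 FPKM, of which the top 2 genes held 25.6% and the top 10 held 60.4%. The median member stood at 10.0 FPKM, against 9.08 FPKM over all genes tested, with 31 members at 10 FPKM or more and 31 between 1 and 10 FPKM. Both genes above 100 FPKM are accessory subunits: Kcnab1, a cytoplasmic beta subunit that binds Kv1 channels and can speed their inactivation, at 181 FPKM, and Kcnip2, a calcium-binding subunit that brings Kv4 channels to the surface, at 154 FPKM. Kcnab1 stood at the 97.7th percentile of all genes tested.

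**Figure D1:**
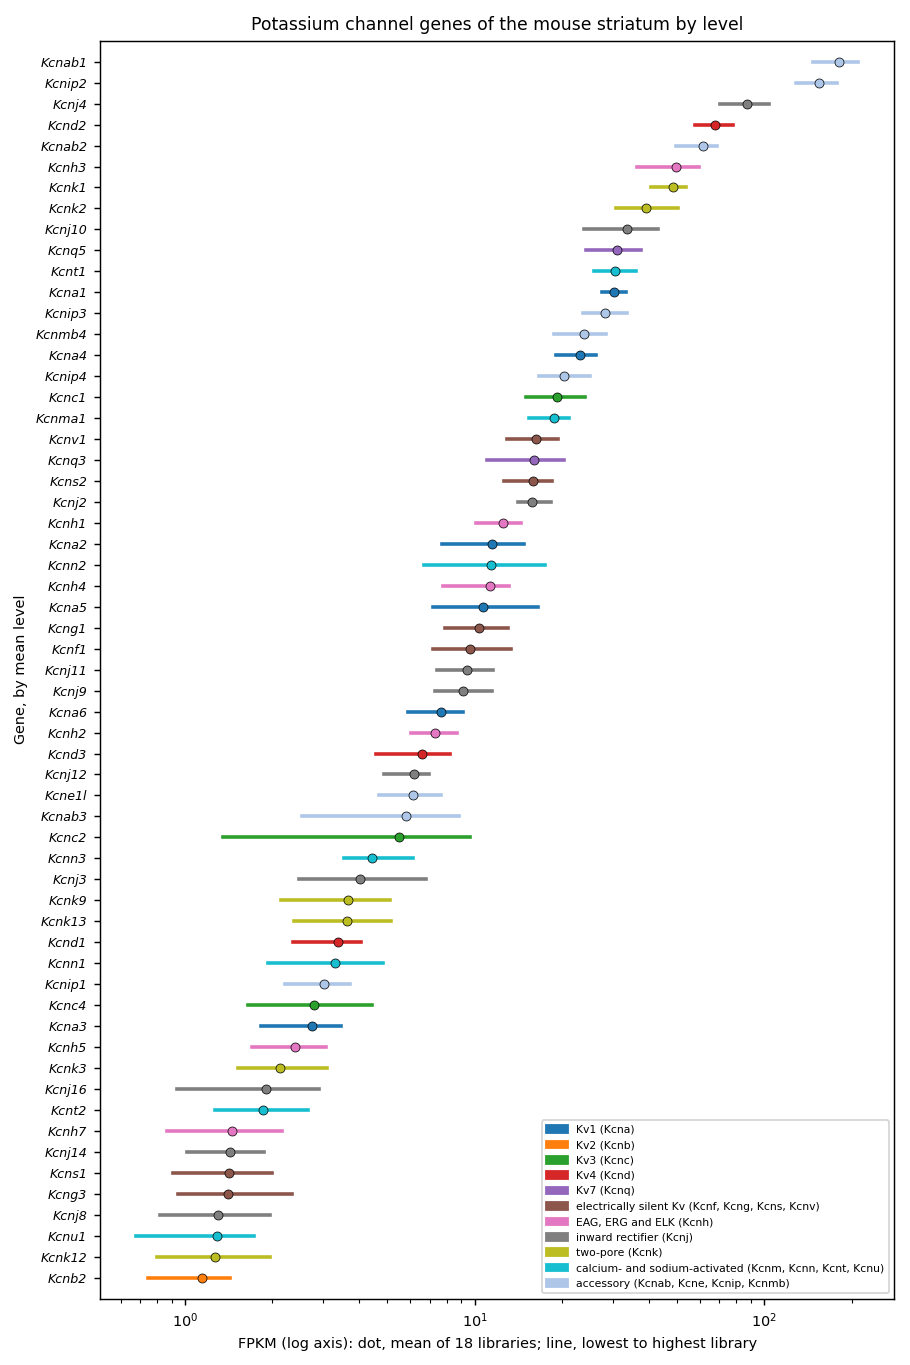
Mean FPKM of 59 of the 62 potassium channel genes on a log axis, 1 row per gene in order of level, coloured by subfamily; dots are means over 18 libraries and lines run from the lowest to the highest library. Kcnab1 and Kcnip2 lead at 180.6 and 154 FPKM, and Kcnc2 and Kcnab3 have long lines.

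The order of neighbouring genes was rarely fixed. Only 4 of the 61 pairs of neighbours in that order kept their order in all 18 libraries, among them Kcnab1 over Kcnip2, Kcnip2 over Kcnj4, and Kcnab2 over Kcnh3.

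Accessory subunits held 36.9% of the summed level with 9 of their 17 names above the limit. Beside Kcnab1 and Kcnip2 these were Kcnab2, another beta subunit of Kv1 channels, at 61.2 FPKM, Kcnip3 at 28.2, Kcnip4 at 20.3 and Kcnip1 at 3.03 FPKM, all calcium-binding partners of Kv4 channels, Kcnmb4, the neuronal beta subunit of the large-conductance calcium-activated channel, at 23.8 FPKM, Kcnab3 at 5.81 FPKM, and Kcne1l, a single-pass subunit of the Kcne family, at 6.13 FPKM. Kcnab1 had 177, 178 and 179 FPKM in amphetamine animals and 186, 176 and 167 FPKM in saline animals on day 1. On day 7 Kcnab1 had 180.2, 147 and 184 FPKM in amphetamine animals and 211, 195 and 179.8 FPKM in saline animals. On day 21 it had 171, 178 and 179 FPKM in amphetamine animals and 178, 198 and 188 FPKM in saline animals. The 2 groups overlapped on each day, and the lowest of the 18 values was amphetamine replicate 2 of day 7.

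The Kv4 genes (Kcnd), pores of the fast A-type current, gave 5.93% of the summed level, nearly all from Kcnd2, with Kcnd3 at 6.56 FPKM and Kcnd1 at 3.36 FPKM. The ratio of Kcnip2 FPKM to Kcnd2 FPKM, a partner over its pore, was 2.28 ± 0.17 (SD, n = 18 libraries; 1.79 to 2.49). By group that ratio came to 2.26 ± 0.071 in amphetamine and 2.23 ± 0.39 in saline animals on day 1, 2.37 ± 0.081 in amphetamine and 2.35 ± 0.056 in saline animals on day 7, and 2.23 ± 0.15 in amphetamine and 2.24 ± 0.18 in saline animals on day 21 (SD, n = 3 each).

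The inward rectifiers (Kcnj) gave 12.98% of the summed level from 10 of 15 names. Kcnj4, a strong inward rectifier of the class that holds projection neurons near the potassium potential, stood at 87.3 FPKM, above its relatives Kcnj2 at 15.8, Kcnj12 at 6.15 and Kcnj14 at 1.43 FPKM. Kcnj4 had 83.3, 75.3 and 100.2 FPKM in amphetamine and 70.4, 93.8 and 78.02 FPKM in saline animals on day 1. On day 7 Kcnj4 had 86.5, 76.7 and 92.5 FPKM in amphetamine and 85.3, 93.3 and 89.4 FPKM in saline animals, and on day 21 80.5, 85.04 and 97.2 FPKM in amphetamine and 86.1, 104 and 93.5 FPKM in saline animals. The treatments overlapped on each day. The ratio of Kcnj4 to Kcnj2 was 5.56 ± 0.77 (SD, n = 18). Kcnj10 and Kcnj16, which form the astrocytic and oligodendroglial inward rectifier, had 33.5 and 1.904 FPKM. The channel that G proteins open was represented by Kcnj3 at 4.02 and Kcnj9 at 9.14 FPKM, while Kcnj6 and Kcnj5 of the same group were below the limit at 0.479 and 0.322 FPKM. The pores of the ATP-sensitive channel, Kcnj11 and Kcnj8, had 9.39 and 1.3 FPKM.

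Of the Kv7 genes, pores of the M-current that muscarinic and other receptors close, Kcnq5 stood at 30.95 FPKM and Kcnq3 at 16 FPKM, and Kcnq1 lay below the limit at 0.0331 FPKM.

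Among the other voltage-gated pores, the 6 Kv1 genes (Kcna) gave 6.56% of the summed level. Kcna1, a Kv1 pore of axons, stood at 30.3 FPKM, Kcna4, the Kv1 pore that inactivates by itself, at 23.03 FPKM, Kcna2 at 11.5, Kcna5 at 10.7, Kcna6 at 7.64 and Kcna3 at 2.74 FPKM. Kcna1 was the steadiest of all members, with a coefficient of variation within groups of 4.53%. Its within-group SD of log2(FPKM + 1) lay at the 4.19th percentile of all genes tested. Its values on day 1 were 31.6, 31.1 and 31.1 FPKM in amphetamine and 29.2, 32.3 and 31.2 FPKM in saline animals. On day 7 Kcna1 had 28.99, 29.6 and 30.3 FPKM in amphetamine and 28.5, 31.1 and 27.8 FPKM in saline animals, and on day 21 31.7, 29.98 and 33.4 FPKM in amphetamine and 27.6, 28.99 and 30.6 FPKM in saline animals. The groups overlapped on each day. Kcnb2, a pore of the Kv2 delayed rectifier, was near the limit at 1.14 FPKM.

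The electrically silent Kv subunits (Kcnf, Kcng, Kcns, Kcnv) form no channel alone and alter Kv2 channels when they join them. Of 10 names 6 were members, with Kcnv1 at 16.3 FPKM, Kcns2 at 15.8, Kcng1 at 10.3, Kcnf1 at 9.67, Kcns1 at 1.42 and Kcng3 at 1.41 FPKM, or 4.197% of the summed level. The Kcnh genes, whose channels fall into the EAG, ERG and ELK classes, gave 6.45% from 6 of 8 names. The leading Kcnh gene was Kcnh3, an ELK channel of the forebrain, at 49.5 FPKM, followed by the EAG channel Kcnh1 at 12.5, the ELK channel Kcnh4 at 11.3 and the ERG channel Kcnh2 at 7.32 FPKM. Kcnh3 had 49.8, 46.9 and 57.5 FPKM in amphetamine and 39.3, 59.6 and 46.6 FPKM in saline animals on day 1, and 49.3, 44.5 and 49.1 FPKM in amphetamine and 53.7, 53.3 and 50.03 FPKM in saline animals on day 7. On day 21 Kcnh3 had 41.9, 36.3 and 52.7 FPKM in amphetamine and 47.2, 56.8 and 56.4 FPKM in saline animals. On day 7 all 3 amphetamine values of Kcnh3 lay below the saline values, by a log2 difference of -0.13 ± 0.14 (SE), and on the other days the groups overlapped.

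The two-pore channels (Kcnk), which carry background or leak current, gave 7.49% of the summed level, mostly from Kcnk1 at 48.3 FPKM and the mechanosensitive Kcnk2 at 39.1 FPKM. The acid-sensitive Kcnk9 and Kcnk3 had 3.65 and 2.13 FPKM, and Kcnk13 and Kcnk12 had 3.61 and 1.27 FPKM. Kcnk1 had 49.02, 48.05 and 53.2 FPKM in amphetamine and 40.6, 53.5 and 44.9 FPKM in saline animals on day 1. On day 7 Kcnk1 had 48.7, 43.7 and 47.2 FPKM in amphetamine and 50.1, 52.7 and 50.3 FPKM in saline animals, without overlap, and on day 21 45.7, 41.5 and 51.9 FPKM in amphetamine and 46.8, 53.8 and 48.1 FPKM in saline animals. The genes of calcium- and sodium-activated channels gave 5.47% from 7 of 8 names. Kcnt1, a sodium-activated channel, led with 30.5 FPKM, ahead of Kcnma1, the large-conductance calcium-activated pore, at 18.8 FPKM and the small-conductance calcium-activated pores Kcnn2, Kcnn3 and Kcnn1 at 11.4, 4.42 and 3.29 FPKM. Kcnu1, a pore known from sperm, was near the limit at 1.29 FPKM.

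To set sequence beside the leading A-type pair and beside Kcnq5, the member with the smallest p in the comparison of treatments on day 1, the 250 bases before each start site are given from RefSeq's promoter table, which covered 43 of the 62 members. Coordinates are of build GRCm38.p6, which is not the build of the expression table, and each sequence reads 5′ to 3′ on the gene's strand with every GC box (GGGCGG on either strand) in capitals: Kcnip2 at chr19:45816064-45816313 (minus strand), Kcnd2 at chr6:21215096-21215345 (plus strand) and Kcnq5 at chr1:21962651-21962900 (minus strand, the first of 2 windows listed).
Kcnip2: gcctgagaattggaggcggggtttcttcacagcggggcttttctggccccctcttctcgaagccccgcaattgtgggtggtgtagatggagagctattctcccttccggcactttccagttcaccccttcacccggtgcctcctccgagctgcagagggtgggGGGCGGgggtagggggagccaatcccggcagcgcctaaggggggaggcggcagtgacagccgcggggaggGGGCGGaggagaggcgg
Kcnd2: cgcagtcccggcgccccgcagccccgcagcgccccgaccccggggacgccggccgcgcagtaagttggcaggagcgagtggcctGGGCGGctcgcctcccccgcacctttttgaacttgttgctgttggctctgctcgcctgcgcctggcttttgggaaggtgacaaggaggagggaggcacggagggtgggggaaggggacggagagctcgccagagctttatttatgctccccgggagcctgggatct
Kcnq5: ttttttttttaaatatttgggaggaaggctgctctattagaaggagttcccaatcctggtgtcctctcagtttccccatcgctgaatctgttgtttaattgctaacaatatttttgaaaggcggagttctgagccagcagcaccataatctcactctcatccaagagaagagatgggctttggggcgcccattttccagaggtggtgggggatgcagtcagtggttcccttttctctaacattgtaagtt
The Kcnip2 window held 2 GC boxes at 66.8% G and C, the Kcnd2 window 1 at 68.8%, and the Kcnq5 window none at 44.4%. Over the table's full windows, which reach a little past the start, a GC box stood in 30 of the 43 members (69.8%), against 38.2% of all 27025 genes listed. The cyclic-AMP response element TGACGTCA was found in 0 of 43 members (2.03% of all genes), the AP-1 site TGACTCA in 2, Kcnip3 and Kcnk2 (4.65%, against 5.95%), and the letters TATAAA in 3, Kcnab1, Kcnj9 and Kcnj16 (6.98%, against 15.7%). Both strands were searched, and a match describes letters in these windows only. The members had to reach a mean of 1 FPKM and the 27025 genes did not, so these percentages set unlike sets side by side.

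Some members are close neighbours on the chromosome. In the order of RefSeq genes, 5 pairs of members stood side by side: Kcnj9 and Kcnj10, Kcnj16 and Kcnj2, Kcna3 and Kcna2, Kcna5 and Kcna1, and Kcna1 and Kcna6. Mean levels were 1.904 FPKM for Kcnj16 and 15.8 FPKM for its neighbour Kcnj2, and 9.14 FPKM for Kcnj9 and 33.5 FPKM for its neighbour Kcnj10. Strand handling in the authors' quantification is not given in the sources used here, so reads of overlapping or antisense transcripts cannot be told apart.

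Levels differed between animals of the same group more for some channel genes than for others. The median coefficient of variation within groups was 13.7% over the 62 members. With spread taken as the within-group SD of log2(FPKM + 1), the median member lay at the 64.9th percentile of all genes tested, and 42 of 62 were above the median gene. The highest library was less than 1.5 times the lowest for 18 members and more than 2 times the lowest for 18. The 4 members among the 10% of genes with the widest spread (6.45% of members) were Kcnc2 with a coefficient of variation of 45.7%, Kcnc4 with 36.5%, Kcnab3 with 32.8% and Kcnj16 with 30.7%.

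Kcnc2 and Kcnc4 belong to the Kv3 genes, whose channels open and close fast enough for high-frequency firing and are known from parvalbumin interneurons. Kcnc1 stood at 19.3 FPKM, Kcnc2 at 5.496 and Kcnc4 at 2.79 FPKM. Kcnc2 had 9.49, 7.61 and 5.68 FPKM in amphetamine and 5.44, 3.99 and 7.48 FPKM in saline animals on day 1. On day 7 Kcnc2 had 4.38, 8.68 and 2.42 FPKM in amphetamine and 1.88, 3.77 and 9.62 FPKM in saline animals, and on day 21 5.2, 4.28 and 1.35 FPKM in amphetamine and 6.45, 4.94 and 6.26 FPKM in saline animals. The lowest values were those of amphetamine replicate 3 on days 7 and 21 and of saline replicate 1 on day 7, and the treatments overlapped on all 3 days.

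The same 3 animals were low for Kcnab3, a beta subunit of Kv1 channels, and for the interneuron marker Pvalb. They were also the lowest 3 of 18 for the inward rectifier Kcnj16, the thalamic and septal markers Prkcd and Trpc4, the oligodendrocyte marker Ermn and the astrocyte markers Slc1a3 and Gja1, but not for the interneuron markers Sst, Chat, Npy and Slc5a7. Kcnab3 had 8.06, 6.31 and 8.81 FPKM in amphetamine and 6.08, 4.18 and 6.44 FPKM in saline animals on day 1, 5.603, 8.001 and 3.28 FPKM in amphetamine and 2.53, 5.77 and 8.68 FPKM in saline animals on day 7, and 5.78, 4.96 and 2.82 FPKM in amphetamine and 5.32, 4.94 and 7.02 FPKM in saline animals on day 21. Pvalb, which encodes the calcium buffer parvalbumin, had 21.6, 21.1 and 21.6 FPKM in amphetamine and 9.04, 9.998 and 20.2 FPKM in saline animals on day 1, 13.5, 18.1 and 6.02 FPKM in amphetamine and 4.798, 14.3 and 18.1 FPKM in saline animals on day 7, and 9.98, 12.8 and 5.05 FPKM in amphetamine and 7.58, 15.3 and 16.4 FPKM in saline animals on day 21. All 5 interneuron markers (Pvalb, Sst, Chat, Npy and Slc5a7) were present, none listed at 0, and their summed level ran from 310.4 to 369 FPKM in amphetamine against 307 to 369 FPKM in saline animals on day 1, 324 to 342 FPKM in amphetamine against 260.1 to 309 FPKM in saline animals on day 7, and 363 to 394 FPKM in amphetamine against 334 to 394 FPKM in saline animals on day 21. The part of these markers in the Kv3 values was not tested.

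**Figure D2:**
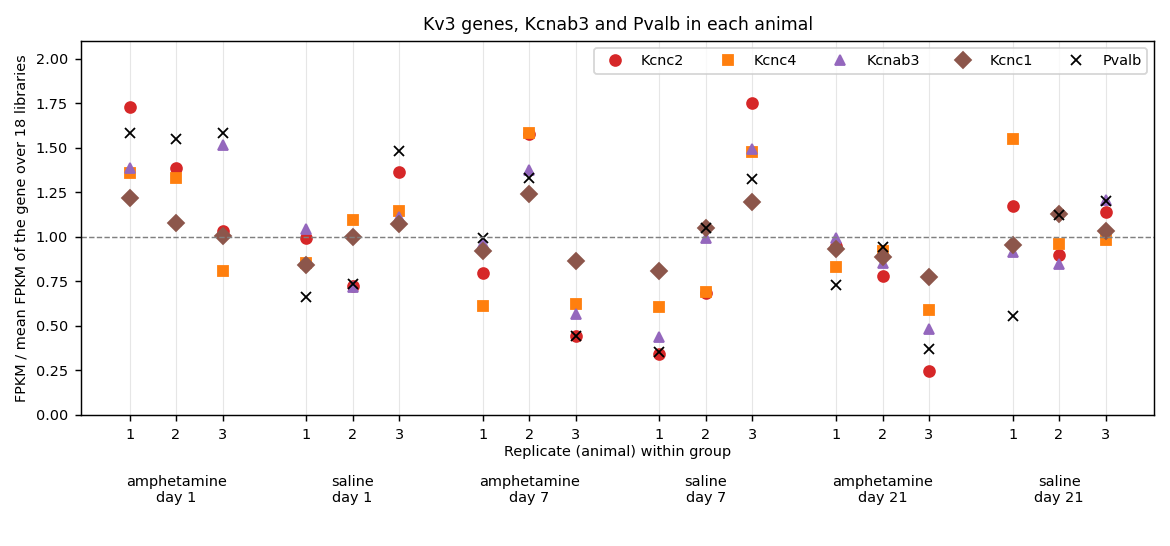
FPKM of Kcnc1, Kcnc2, Kcnc4, Kcnab3 and the interneuron marker Pvalb in each animal, divided by the gene's mean over 18 libraries; 1 column of points per animal, amphetamine left of saline on each day, with the dashed line at the mean. Amphetamine replicate 3 of days 7 and 21 and saline replicate 1 of day 7 have low Kcnc2, Kcnab3 and Pvalb.

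Amphetamine and saline animals were compared on each day by limma on log2(FPKM + 1), fitted to all 13975 genes and 18 libraries, with p-values adjusted over all genes by the Benjamini-Hochberg method and a threshold of 0.05. Differences are amphetamine minus saline on the log2(FPKM + 1) scale, which understates changes of genes near 1 FPKM. No potassium channel gene passed on any day, with 0 of 62 members called on each, where 0.00716% of all genes were called on day 1, 0.0215% on day 7 and 0% on day 21. At an unadjusted p under 0.05 there were 5 members on day 1 (8.06%, against 7.25% of all genes), 6 on day 7 (9.68%, against 4.92%) and 3 on day 21 (4.84%, against 5.5%). By direction, 1 was higher and 4 were lower with amphetamine on day 1 (5.32% and 1.93% of all genes), 1 higher and 5 lower on day 7 (2.83% and 2.09%), and 1 higher and 2 lower on day 21 (2.33% and 3.17%). Among members the smallest adjusted p of days 1, 7 and 21 came to 0.452, 0.822 and 0.869.

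Most differences were small. On day 1 the members' differences ran from -0.43 to 0.42 with a median of 0.02 (all genes 0.05), and 49 of 62 lay within 0.2 of 0. The day 7 range was -0.32 to 0.38 with a median of 0.01 (all genes 0.00) and 53 within 0.2, and the day 21 range was -0.69 to 0.30 with a median of -0.07 (all genes -0.02) and 46 within 0.2. The difference was positive for 35, 31 and 21 of the 62 members on days 1, 7 and 21, or 56.5%, 50% and 33.9%, against 64%, 51.5% and 42.7% of all genes. With a median standard error of 0.13 per day, the 95% interval of the difference lay inside 0.5 on either side of 0 for 47, 48 and 45 members on the 3 days, and inside 1 for 60, 61 and 59. A p above the threshold therefore does not show equal levels for any member, and the members with wider intervals, Kcnc2 foremost, leave room for larger differences.

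**Figure D3:**
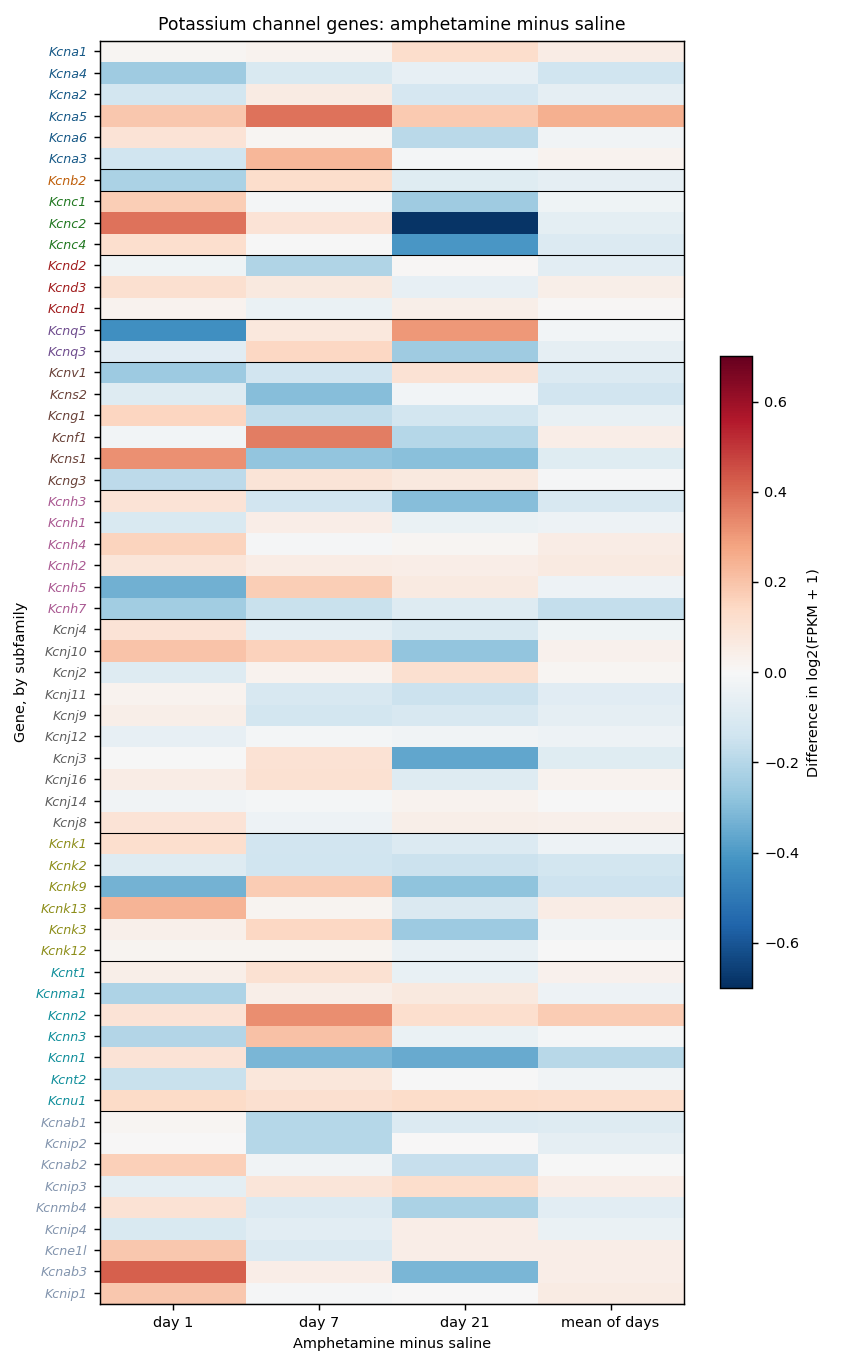
Log2(FPKM + 1) difference, amphetamine minus saline, for 59 of the 62 genes (rows, grouped by subfamily) on days 1, 7 and 21 and averaged over the days (columns); red is higher and blue lower with amphetamine. Kcnc2 on day 21 (-0.69) and Kcnq5 on day 1 (-0.43) are the deepest blues, and no cell passed the adjusted threshold.

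The groups of 3 did not overlap for 8 members on day 1 (12.9%, against 10.6% of all genes), for 10 on day 7 (16.1%, against 10.3%) and for 9 on day 21 (14.5%, against 12.3%). By direction, 3 were higher and 5 lower with amphetamine on day 1 (7.73% and 2.9% of all genes), 4 higher and 6 lower on day 7 (5.45% and 4.86%), and 2 higher and 7 lower on day 21 (4.76% and 7.51%). On day 1 the higher ones were Kcns1, Kcnip1 and Kcnu1, and the lower ones Kcnq5, Kcna4, Kcnma1, Kcnh5 and Kcnh7. The day 7 set was Kcna5, Kcnf1, Kcnb2 and Kcnt2 above, and Kcnip2, Kcnh3, Kcnk1, Kcns1, Kcns2 and Kcnn1 below the saline animals. On day 21 Kcnq5 and Kcnj2 lay above, and Kcns1, Kcnc1, Kcnc4, Kcnk2, Kcnk3, Kcnmb4 and Kcna6 below. On day 1 the choroid plexus markers moved with treatment too, without overlap of their sums, and the part of that was not tested. A comparison of 3 animals with 3 cannot reach an exact permutation p under 0.1.

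Kcnq5, an M-current pore, had the smallest p of all members on days 1 and 21, in opposite directions. On day 1 Kcnq5 had 28.03, 24.6 and 24.2 FPKM in amphetamine animals and 36.9, 31.4 and 35.97 FPKM in saline animals. On day 7 the values were 29.99, 27.8 and 37.6 FPKM in amphetamine animals and 27.8, 30.3 and 31.8 FPKM in saline animals. On day 21 they were 34.02, 34.4 and 37.2 FPKM in amphetamine animals and 28.5, 28.1 and 28.6 FPKM in saline animals. Every amphetamine animal was below every saline animal on day 1 and above every saline animal on day 21, and the groups overlapped on day 7. The log2 difference of Kcnq5 came to -0.43 ± 0.10 (SE) on day 1 (limma adjusted p = 0.452), to 0.07 ± 0.10 on day 7, and to 0.30 ± 0.10 on day 21 (adjusted p = 0.869). By p, Kcnq5 ranked 18 of 13975 genes on day 1. Kcnq3, which also forms M-current channels, differed by -0.08 ± 0.16, 0.14 ± 0.16 and -0.25 ± 0.16 on days 1, 7 and 21.

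Kcns1, a silent subunit that joins Kv2 pores, had groups that did not overlap on any of the 3 days. Taken singly, days 1, 7 and 21 had 10.6%, 10.3% and 12.3% of all genes without overlap. The share of all genes without overlap on all 3 days was not counted. Kcns1 had 1.67, 1.64 and 1.72 FPKM in amphetamine and 1.24, 1.31 and 0.909 FPKM in saline animals on day 1, where amphetamine was higher. On day 7 Kcns1 had 1.07, 1.18 and 1.04 FPKM in amphetamine and 1.51, 1.36 and 1.76 FPKM in saline animals, and on day 21 1.54, 1.06 and 1.22 FPKM in amphetamine and 1.74, 1.99 and 1.61 FPKM in saline animals, with amphetamine lower on both days. The differences were 0.32 ± 0.11 (SE), -0.28 ± 0.11 and -0.29 ± 0.11 (log2; adjusted p from limma of 0.666, 0.884 and 0.869). These levels lie near 1 FPKM, and the reads behind them are not known. Kcns2, of the same group with a mean of 15.8 FPKM, had 15.8, 14.8 and 12.6 FPKM in amphetamine and 14.1, 16.5 and 15.6 FPKM in saline animals on day 1, 12.7, 13.1 and 16.7 FPKM in amphetamine and 18.5, 16.7 and 17.3 FPKM in saline animals on day 7, and 15.7, 17.4 and 16.98 FPKM in amphetamine and 16.8, 17.04 and 16.9 FPKM in saline animals on day 21. Its groups were apart on day 7, with the smallest member p of that day and a difference of -0.30 ± 0.10 (adjusted p = 0.822). Kcnv1 had 12.9, 14.9 and 16.7 FPKM in amphetamine and 19.4, 16.1 and 18.1 FPKM in saline animals on day 1, 15.6, 13.5 and 15.6 FPKM in amphetamine and 16.9, 16.8 and 15.5 FPKM in saline animals on day 7, and 14.6, 19.04 and 18.6 FPKM in amphetamine and 16.8, 15.6 and 15.8 FPKM in saline animals on day 21. The Kcnv1 difference on day 1 was -0.26 ± 0.10 (adjusted p = 0.666).

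**Figure D4:**
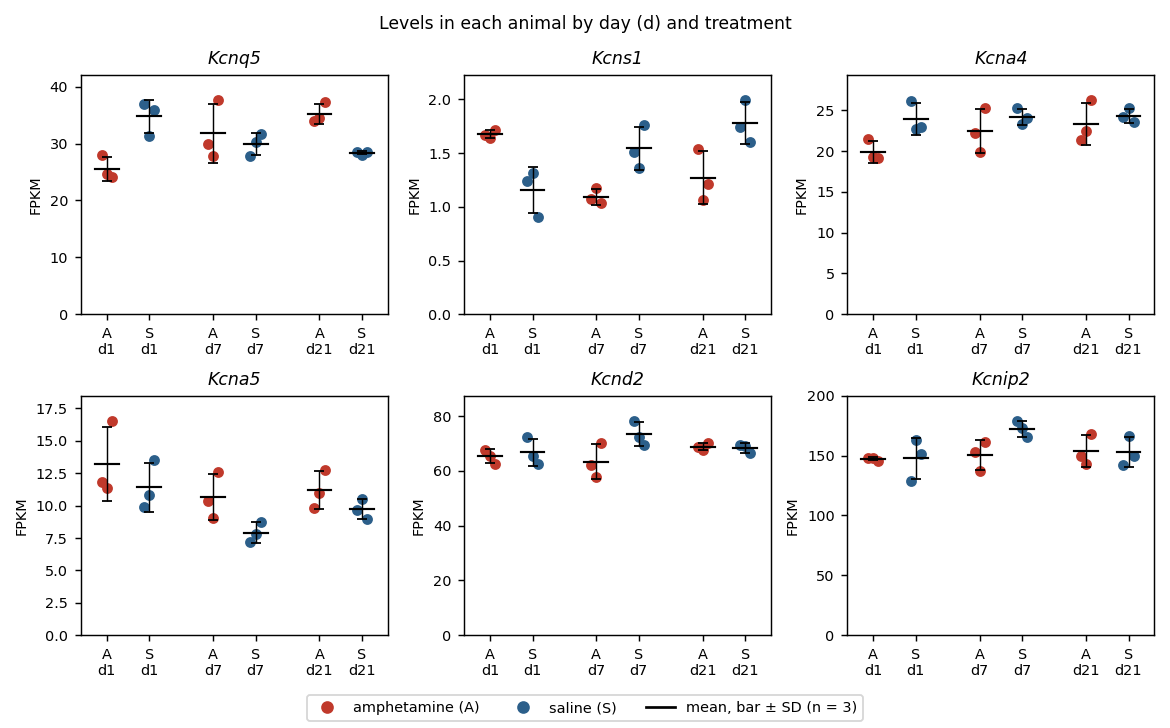
FPKM of Kcnq5, Kcns1, Kcna4, Kcna5, Kcnd2 and Kcnip2 in each animal, amphetamine (A, red) left of saline (S, blue) on days 1, 7 and 21 (d1, d7, d21); horizontal lines are means and bars are 1 SD either side (n = 3). Kcnq5 is low in amphetamine animals on day 1 and high on day 21, and Kcnd2 and Kcnip2 stand below the saline mean on day 7.

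On day 7 the A-type pore Kcnd2 and its partner Kcnip2 had lower means in amphetamine than in saline animals, without passing the test. Kcnd2 had 62.2, 57.7 and 70.3 FPKM in amphetamine animals and 78.1, 72.5 and 69.5 FPKM in saline animals, a difference of -0.21 ± 0.07 (SE; limma adjusted p = 0.822). Kcnip2 had 153, 137 and 161 FPKM in amphetamine animals and 179, 173 and 166 FPKM in saline animals, a difference of -0.20 ± 0.09. For Kcnip2 the groups were apart, while 1 amphetamine value of Kcnd2 lay among the saline values. Kcnab1 differed by -0.20 ± 0.08 on that day. On day 1 Kcnd2 had 67.7, 65.6 and 62.6 FPKM in amphetamine and 72.2, 65.3 and 62.6 FPKM in saline animals, and on day 21 68.7, 67.8 and 70.1 FPKM in amphetamine and 69.6, 69.2 and 66.4 FPKM in saline animals, with overlap on both days. Kcnip2 had 148, 148 and 146 FPKM in amphetamine and 129, 163 and 151 FPKM in saline animals on day 1, and 149, 143 and 168 FPKM in amphetamine and 143, 167 and 150.0 FPKM in saline animals on day 21, also overlapping.

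Of the Kv1 genes, Kcna4 had the lowest and Kcna5 the highest difference on days 1 and 7. On day 21 Kcna5 was again the highest, at 0.18, while Kcna4, at -0.06, was not the lowest. Kcna4 had 21.5, 19.2 and 19.1 FPKM in amphetamine and 26.2, 22.7 and 22.9 FPKM in saline animals on day 1. On day 7 Kcna4 had 22.2, 19.9 and 25.3 FPKM in amphetamine and 25.3, 23.3 and 23.99 FPKM in saline animals, and on day 21 21.3, 22.5 and 26.2 FPKM in amphetamine and 24.2, 25.2 and 23.5 FPKM in saline animals. The groups were apart on day 1, with a difference of -0.25 ± 0.09 (SE; limma adjusted p = 0.666), and overlapped afterwards. Kcna5 had 11.8, 11.4 and 16.5 FPKM in amphetamine and 9.86, 10.9 and 13.5 FPKM in saline animals on day 1, 10.3, 9.06 and 12.6 FPKM in amphetamine and 7.18, 7.795 and 8.77 FPKM in saline animals on day 7, and 9.85, 10.9 and 12.8 FPKM in amphetamine and 9.63, 10.52 and 8.98 FPKM in saline animals on day 21. Its amphetamine animals were above the saline animals without overlap on day 7, by 0.38 ± 0.15 (adjusted p = 0.892). Kcnh5, an EAG channel, had 1.99, 2.17 and 1.73 FPKM in amphetamine and 2.61, 3.07 and 2.54 FPKM in saline animals on day 1, 2.58, 2.86 and 2.36 FPKM in amphetamine and 2.53, 2.41 and 1.71 FPKM in saline animals on day 7, and 2.24, 2.39 and 2.77 FPKM in amphetamine and 2.64, 1.799 and 2.57 FPKM in saline animals on day 21. Its groups were apart on day 1, by -0.34 ± 0.12 (adjusted p = 0.666).

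Kcnn1, a small-conductance calcium-activated pore that shapes the hyperpolarization after a spike, had 2.99, 3.18 and 2.73 FPKM in amphetamine and 1.93, 3.47 and 2.91 FPKM in saline animals on day 1. On day 7 Kcnn1 had 3.46, 2.47 and 3.03 FPKM in amphetamine and 4.14, 3.96 and 3.76 FPKM in saline animals, and on day 21 3.12, 2.25 and 3.63 FPKM in amphetamine and 3.91, 3.48 and 4.84 FPKM in saline animals. The groups were apart on day 7 only, and the differences were 0.10 ± 0.16 (SE), -0.32 ± 0.16 and -0.35 ± 0.16 on days 1, 7 and 21 (limma adjusted p = 0.859, 1.00 and 0.869).

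The Kv3 genes Kcnc1, Kcnc2 and Kcnc4 each had a positive difference on day 1 and a negative one on day 21, with none past the test. On day 1 the differences were 0.17 ± 0.15 (SE), 0.38 ± 0.47 and 0.12 ± 0.29 in that order, and on day 21 -0.25 ± 0.15, -0.69 ± 0.47 and -0.41 ± 0.29, against medians of all genes of 0.05 and -0.02. Over the alternatives the day 21 difference lay between -0.31 and -0.18 for Kcnc1 and between -0.54 and -0.23 for Kcnc4. Kcnc1 had 23.5, 20.8 and 19.4 FPKM in amphetamine and 16.3, 19.3 and 20.7 FPKM in saline animals on day 1, 17.7, 23.9 and 16.7 FPKM in amphetamine and 15.6, 20.3 and 23.02 FPKM in saline animals on day 7, and 18, 17.1 and 14.99 FPKM in amphetamine and 18.4, 21.8 and 19.9 FPKM in saline animals on day 21. The Kcnc1 groups were apart on day 21, as were those of Kcnc4, which had 2.33, 2.56 and 1.65 FPKM in amphetamine and 4.32, 2.68 and 2.73 FPKM in saline animals. The Kcnc2 difference on day 21 (limma adjusted p = 0.878) rested largely on amphetamine replicate 3 and was -0.26 without that animal. Among the 5 interneuron markers the day 21 difference was -0.47 for Pvalb and positive for the other 4, from 0.06 to 0.17. On day 1 the difference was positive for 2 of the 5, Pvalb among them. The part of these markers was not tested.

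By subfamily, median differences on days 1, 7 and 21 were 0.10, -0.07 and 0.00 for the accessory genes, and 0.03, -0.01 and -0.10 for the inward rectifiers. All 6 two-pore genes were lower in the mean of amphetamine animals on day 21, with differences of -0.28 to -0.05. On each of days 1 and 7, 4 of the 6 were higher, with Kcnk1 among them on day 1 only and Kcnk9 on day 7 only. The 6 Kv1 genes had medians of -0.06, 0.04 and -0.04, and the 6 Kcnh genes -0.01, 0.02 and -0.02. The silent subunits had medians of -0.05, -0.15 and -0.07, and the calcium- and sodium-activated group 0.04, 0.11 and 0.00. The 3 Kv4 genes had 0.02, -0.05 and 0.01. With scaling by the median of ratios or by quantiles in place of the authors' own, the day 1 medians of the inward rectifiers, the Kv4 genes, the two-pore genes and the calcium- and sodium-activated group changed sign. Both scalings also turned the day 21 medians of the Kcnh genes and the calcium- and sodium-activated group from just below to just above 0 (at most 0.02), and quantiles turned the day 7 median of the two-pore genes to -0.01. When 1 animal was left out, every subfamily of this paragraph except the silent subunits had a median that changed sign on at least 1 day. The two-pore median of day 7 then lay between -0.08 and 0.14. The Kcnh median of day 1 lay between -0.13 and 0.07, and the accessory median of day 21 between -0.10 and 0.02.

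Averaged over the 3 days, the treatment difference also left 0 of 62 members past the threshold, where 0.122% of all genes passed, and the smallest adjusted p among members was 0.733. At an unadjusted p under 0.05 there were 3 members (4.84%, against 5.36% of all genes), Kcna5 higher (3.63% of all genes in that direction) and Kcna4 and Kcns2 lower with amphetamine (1.73%). Kcna5 differed by 0.25 ± 0.09 (SE; limma adjusted p = 0.733; 95% interval 0.07 to 0.44), Kcna4 by -0.14 ± 0.05 (adjusted p = 0.797) and Kcns2 by -0.14 ± 0.06 (adjusted p = 0.867). The members' mean differences ran from -0.19 to 0.25 with a median of -0.03 (all genes 0.01) and were positive for 20 members (32.3%, against 55.6% of all genes), 61 of 62 lay within 0.2 of 0, and the 95% interval was inside 0.5 on either side for 61. The difference had the same sign on the 3 days for 12 members (19.4%, against 21.1% of all genes). Of these, 5 were higher each day, namely Kcna1, Kcnn2, Kcna5, Kcnh2 and Kcnu1 (13.1% of all genes), and 7 were lower each day, among them Kcnk2, Kcna4, Kcns2, Kcnj12 and Kcnh7 (8.04% of all genes).

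Whether the treatment difference itself varied between days was tested by a moderated F over its changes from day 1 to days 7 and 21. Again 0 of 62 members passed, as 0% of all genes did, and 3 members had an unadjusted p under 0.05 (4.84%, against 6.25% of all genes). The first was Kcnq5, whose difference was 0.50 higher on day 7 and 0.73 higher on day 21 than on day 1 (limma adjusted p = 0.652), which ranked 6 of 13975 genes by p. For Kcns1 the difference was -0.60 and -0.61 relative to day 1 (adjusted p = 0.773), and for Kcnh5 it was 0.51 and 0.40 (adjusted p = 0.773).

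The effect of day over both treatments was tested in the same way, and 0 of 62 members passed (0% of all genes). Here 8 members had an unadjusted p under 0.05 (12.9%, against 10.7% of all genes): Kcnt1, Kcnn2, Kcnk2, Kcnh4, Kcna5, Kcnj11, Kcng3 and Kcnip3. Kcnt1 had 28.9 ± 2.5 FPKM on day 1, 33.4 ± 2.0 FPKM on day 7 and 29.2 ± 1.4 FPKM on day 21 (SD, n = 6 each; limma adjusted p = 0.291). Its single values were 28.7, 28.9 and 30.04 FPKM in amphetamine and 26.8, 32.9 and 25.9 FPKM in saline animals on day 1, 36.2, 33.2 and 34.7 FPKM in amphetamine and 33.7, 32.5 and 30.2 FPKM in saline animals on day 7, and 29.6, 27.6 and 28.8 FPKM in amphetamine and 28.6, 31.7 and 28.9 FPKM in saline animals on day 21. The day 7 animals were higher on average and overlapped those of day 1.

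Kcnn2, the small-conductance pore with the highest level, had 13.3 ± 2.4, 11.5 ± 2.5 and 9.22 ± 1.3 FPKM on days 1, 7 and 21 (SD, n = 6 each; adjusted p = 0.308), a log2 difference of -0.48 ± 0.12 (SE) between days 21 and 1. On day 1 Kcnn2 had 10.97, 13.2 and 17.5 FPKM in amphetamine and 11.96, 14.4 and 11.9 FPKM in saline animals. On day 7 it had 13.4, 15.6 and 10.1 FPKM in amphetamine and 10.7, 10.6 and 8.86 FPKM in saline animals, and on day 21 9.46, 9.303 and 9.93 FPKM in amphetamine and 6.702, 9.32 and 10.6 FPKM in saline animals. Every animal of day 21 was below every animal of day 1. Kcnk2 had 35.2 ± 4.1, 44.2 ± 5.7 and 37.7 ± 2.9 FPKM (SD, n = 6 each; adjusted p = 0.309). Its values were 37.8, 33.6 and 30.8 FPKM in amphetamine and 31.4, 36.5 and 41.4 FPKM in saline animals on day 1, and 39.5, 36.7 and 50.5 FPKM in amphetamine and 48.9, 41.6 and 48.3 FPKM in saline animals on day 7. On day 21 Kcnk2 had 36.6, 34.6 and 35.8 FPKM in amphetamine and 38.3, 42.8 and 38.1 FPKM in saline animals, the 1 day on which its treatments were apart. Kcnh4 had 10.6 ± 1.7, 12.8 ± 0.32 and 10.4 ± 1.0 FPKM (adjusted p = 0.344), and Kcna5 12.3 ± 2.4, 9.29 ± 1.9 and 10.45 ± 1.3 FPKM (adjusted p = 0.345). Each day has its own animals, so age, days of injection and any difference in handling between days cannot be told apart.

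**Figure D5:**
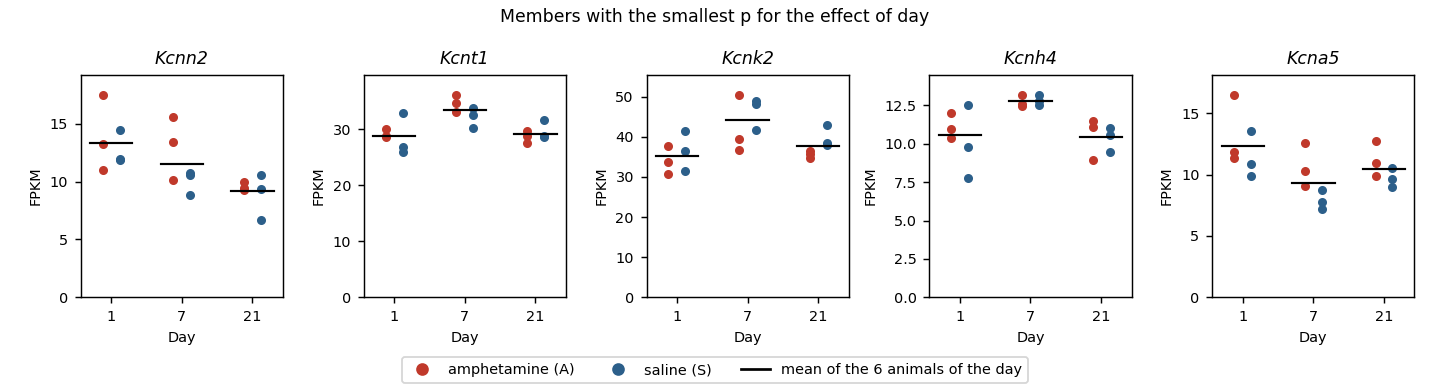
FPKM of Kcnn2, Kcnt1, Kcnk2, Kcnh4 and Kcna5 in each animal on days 1, 7 and 21, amphetamine (red) left of saline (blue) on each day; lines are means of the 6 animals of a day. Kcnn2 averages 13.3, 11.5 and 9.22 FPKM, and Kcnt1, Kcnk2 and Kcnh4 have their highest mean on day 7.

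Over the members, the median difference from day 1 was 0.03 on day 7 and 0.03 on day 21, against -0.03 and 0.00 for all genes.

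Proteins that work with potassium channels without bearing a Kcn name were compared in the same fit. Of 24 such partners, among them the Kv4 partners Dpp6 and Dpp10, the ankyrin Ank3 that anchors Kv7 channels, and the sulfonylurea receptor Abcc9, all were in the table and 21 were tested. None of the 21 passed in any of the 6 tests, and their median differences were 0.03, 0.01 and -0.02 on days 1, 7 and 21 and 0.01 in the mean of days. The 2 with the smallest p in the mean of days were Ank3, at -0.07 ± 0.05 (SE), and Dpp6, at 0.05 ± 0.03 (limma adjusted p = 0.999 for both).

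Across the 18 libraries, the genes whose log2 levels followed a channel gene most closely were listed for 4 members, as a description with no test, since libraries share depth, dissection and treatment. Kcnj4 ran closest to Smarcd1 (Pearson r = 0.938) and Tesc (0.925), and Kcnj2 to AK042300 (0.831) and Zmynd11 (0.808). Kcna4 ran closest to Slmap (0.880) and Klhl2 (0.844), and Kcnab1 to the calcineurin subunit genes Ppp3ca (0.889) and Ppp3r1 (0.846).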

How the data were processed

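PolyA RNA of the striatum of 18 mice was sequenced, with 3 animals in each of 6 groups named by the labels. The authors deposited 1 table of FPKM values, with 0 columns of other samples. The submitters' processing notes name Bowtie and build mm9. Their versions, the program that made the FPKM, its annotation and its strand handling: not given in the sources used here. No count model suits FPKM, and none was used.

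Tests used log2(FPKM + 1) and limma (version 3.58.1, R version 4.3.3) and a mean-variance trend, over all 13975 genes with a mean of at least 1 FPKM and all 18 libraries, 1 mean per group (12 residual and 2.26 prior degrees of freedom). Two-sided p-values were adjusted over all genes (Benjamini-Hochberg), with a threshold of 0.05. The 6 tests were amphetamine minus saline on each day and over the 3 days, the treatment by day interaction and the effect of day. Each library is 1 mouse, per the series' design text, and spread is between animals. The scripts were tested on simulated data.

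Values in every library are given for the 3 members with the smallest p in each test and the highest member of each subfamily, as far as they are reported. 3 members and 1 further Kcn name are not reported here, although the members entered every test and count. Kcnc2, Kcnc4, Kcnab3, Kcnip2 and Kcnh4 were added after their values were seen. The members and lists were chosen with earlier results of these data known. The alternatives tried changed the pseudocount (to 0.1), the filter (none, or 5 FPKM), the scaling (median of ratios, quantiles), the moderation (robust), the weights (per library), the covariates (replicate number as a block, or which range a label's number falls in) and the libraries (each left out, or 1 day alone). RefSeq (GRCm38.p6) served for symbols, gene order and promoter sequences. Figures were drawn with matplotlib (version 3.10.9).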

Additional observations from a re-analysis of the deposited data

How the results depend on the processing

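Under 28 or 29 alternatives per comparison, 0 of 62 members passed the threshold in any of the 6 tests. The smallest adjusted p of a member over the alternatives was 0.176 for day 1 (without the day 7 amphetamine replicate 3), then 0.353 for day 7, 0.261 for day 21, 0.342 for the days averaged, 0.255 for the interaction and 0.0676 for the effect of day, the last 5 with array weights. Deviations of same-numbered animals correlated weakly, at -0.0853 to 0.145 over 9 pairs, 3 of them over 0.1, and 4 of 9 amphetamine libraries were closest to their own number. The days differed in this. On day 21 each amphetamine library was closest to its own number, at 0.114, 0.0426 and 0.145, while the day 7 same-number values were -0.0248, -0.0464 and -0.0853. With the replicate number as a block, 0 members were called in each test. The Kcnq5 difference on day 1 kept its sign under 29 of 29 alternatives, between -0.50 and -0.37. Single differences were followed over the alternatives only for the members chosen by the rule for values in every library or added later, not for all 62. For 5 of these members a change of sign came with a move larger than the standard error of the difference as reported. Other differences near 0 among them also changed sign under some alternatives, with smaller moves. On day 1 the Kcnn1 value was -0.0749 without the saline replicate 1, where 0.0955 was reported, and it lay between -0.0749 and 0.229 when 1 animal was left out. A covariate for the range of the label's number gave the same day 1 value by design. Among day 1 labels only that animal's number lay in another range, and no other day shared the range of the rest. For Kcnip2 leaving that animal out, or fitting that covariate, gave -0.0892 in place of 0.00387, with -0.0892 to 0.0774 when 1 animal was left out. On day 7 Kcnq5 was -0.0505 without the amphetamine replicate 3 (leave-one-out range -0.0505 to 0.162), Kcnab3 was -0.354 without the saline replicate 1 (-0.354 to 0.374), and Kcnc4 was 0.287 without the saline replicate 3 (-0.333 to 0.287). The cause was not tested. The median of all 62 members on day 1, 0.02 as reported, was -0.02 with either scaling and -0.03 without the saline replicate 1. On day 21 the Kcnc2 difference lay between -0.96 and -0.26 when 1 animal was left out. Absolute depth is unknown, and members near 1 FPKM rest on an unknown number of reads.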

Other observations

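The 33 Kcn names under 1 FPKM, 12 of them under 0.1 FPKM, were described by their levels and entered no test. Kcne1, a subunit known from heart and inner ear, and Kcnk16, known from pancreas, were listed at 0 in all 18 libraries. The non-coding transcript Kcnq1ot1, which silences its imprinted neighbourhood, had 0.173 FPKM on average, between 0.118 and 0.203 FPKM. Kcnj13 and Kcne2, both known from the choroid plexus, had 0.929, 0.240 and 0.188 FPKM and 0.357, 0.369 and 0.193 FPKM in the 3 amphetamine animals of day 1. In the saline animals of day 1 Kcnj13 had 0.0521, 0.169 and 0.199 FPKM and Kcne2 had 0.0801, 0.174 and 0 FPKM. The amphetamine replicate 1 of day 1 also held the highest Ttr of the 18 libraries, at 91.1 FPKM. Kcnj6, the inward rectifier subunit of dopamine neurons, averaged 0.479 FPKM, between 0.135 and 1.07 FPKM, and Kcnmb2 and Kcnn4 averaged 0.230 and 0.149 FPKM. 2 names in capitals that begin with KCN were not counted as matches of the name rule.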
